A study of Mus musculus with 6 samples.

Results

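Transcript levels of 48 genes of DNA replication and of the step from G1 into S phase were compared between hearts of mice with a knockout of Cenpf and wild-type hearts. The 48 genes were a list of known replication and G1/S genes. A gene was measured by the probe set whose annotation gives its symbol alone, and where several did so the one with the highest mean over the 6 arrays was used. Every one of the 48 was found this way, among 19938 genes measured by a probe set with 1 symbol. The series holds 3 knockout and 3 wild-type hearts, each from an untreated mouse grown to 12 months and each read on 1 Affymetrix gene array from total RNA. The replicates are labelled as biological, so their spread includes differences between mice. Neither strain nor sex is stated in the labels, nor is the part of the gene that was removed or the cells that lost it.

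DNA is copied once in each cell cycle. In G1 the origin recognition complex, with Cdc6 and Cdt1, loads the Mcm2 to Mcm7 ring onto origins, and in S phase the ring joins Cdc45 and the GINS proteins to form the helicase that opens DNA for the polymerases. Entry into S phase is gated by the retinoblastoma family of pocket proteins, which hold back E2F transcription factors until cyclin D and cyclin E kinases phosphorylate them. Most heart muscle cells of an adult mouse have left the cell cycle, so replication transcripts in a whole heart can also come from endothelial, stromal, immune and blood cells. In a bulk sample, fewer cells of a type and less RNA per cell cannot be told apart.

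Values are the deposited log2 values, and a level was set against a background level of 6.35. It is the level below which 95% of 1210 probe sets of olfactory and vomeronasal receptors lay in mean. The background level is an aid for reading low values, since probe sets differ in their own signal and the levels of different genes cannot be ranked. Cenpf, which encodes a large kinetochore protein that binds microtubules, read 6.35, 6.10 and 6.68 in knockout hearts, against 8.75, 8.54 and 8.04 in wild-type hearts. The difference, knockout minus wild-type, was -2.07 ± 0.21 (SE) (limma, adjusted p = 0.0286), and the groups did not overlap. An exact permutation test (two-sided) gave p = 0.1, which is the lowest value possible with 3 hearts in each group. The adjusted p of Cenpf was 0.0689 or more when any array other than wild-type replicate 3 was left out, and 0.00508 without that array. The 8 markers of ventricular cardiomyocytes, among them Myh6 and Tnnt2, lay above background in mean level, so the markers fit the labelled tissue.

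Of the 48 replication and G1/S genes, 0 passed an adjusted p under 0.05 in either direction. Limma called 0.0275% of the 21789 probe sets tested at that threshold. At an unadjusted p under 0.05 there were 4 members, or 8.33%, against 9.90% of all probe sets tested. E2f8 and Ccne1 were on the higher side in knockout hearts, where 4.66% of all probe sets lay, and Rrm1 and Cdk6 on the lower side, where 5.24% lay. The groups did not overlap for 6 members, or 12.5%, against 14.8% of all probe sets tested, with 4 higher (Lig1, Ccne1, E2f3 and E2f8, against 7.33% of all probe sets) and 2 lower (Orc2 and Rrm1, against 7.47%). Both overall shares lay near those of the array as a whole, so neither is a result about these genes. The difference was above 0 in 23 members and below 0 in 25, with a median of -0.017 against -0.0082 over all probe sets tested.

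The size of change that the 6 arrays leave room for can be read from the intervals. For 40 of the 48 genes the 95% interval of the difference lay within a 1.5-fold change in either direction, against 82.2% of all probe sets tested. The 40 include Orc1 and Gins1, which lay below background in mean in both groups, so that their intervals do not bound a change in transcript level. They also include Pcna and Tk1, whose chosen probe sets may read copies elsewhere. For 47 genes the interval lay within a 2-fold change, and the exception was Cdc6, with an interval from -0.36 to 1.12. These are intervals for 1 gene at a time. The members varied between hearts of the same group much like other genes, with a median within-group SD of 0.14 on the log2 scale against 0.15 over all probe sets tested.

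**Figure D1:**
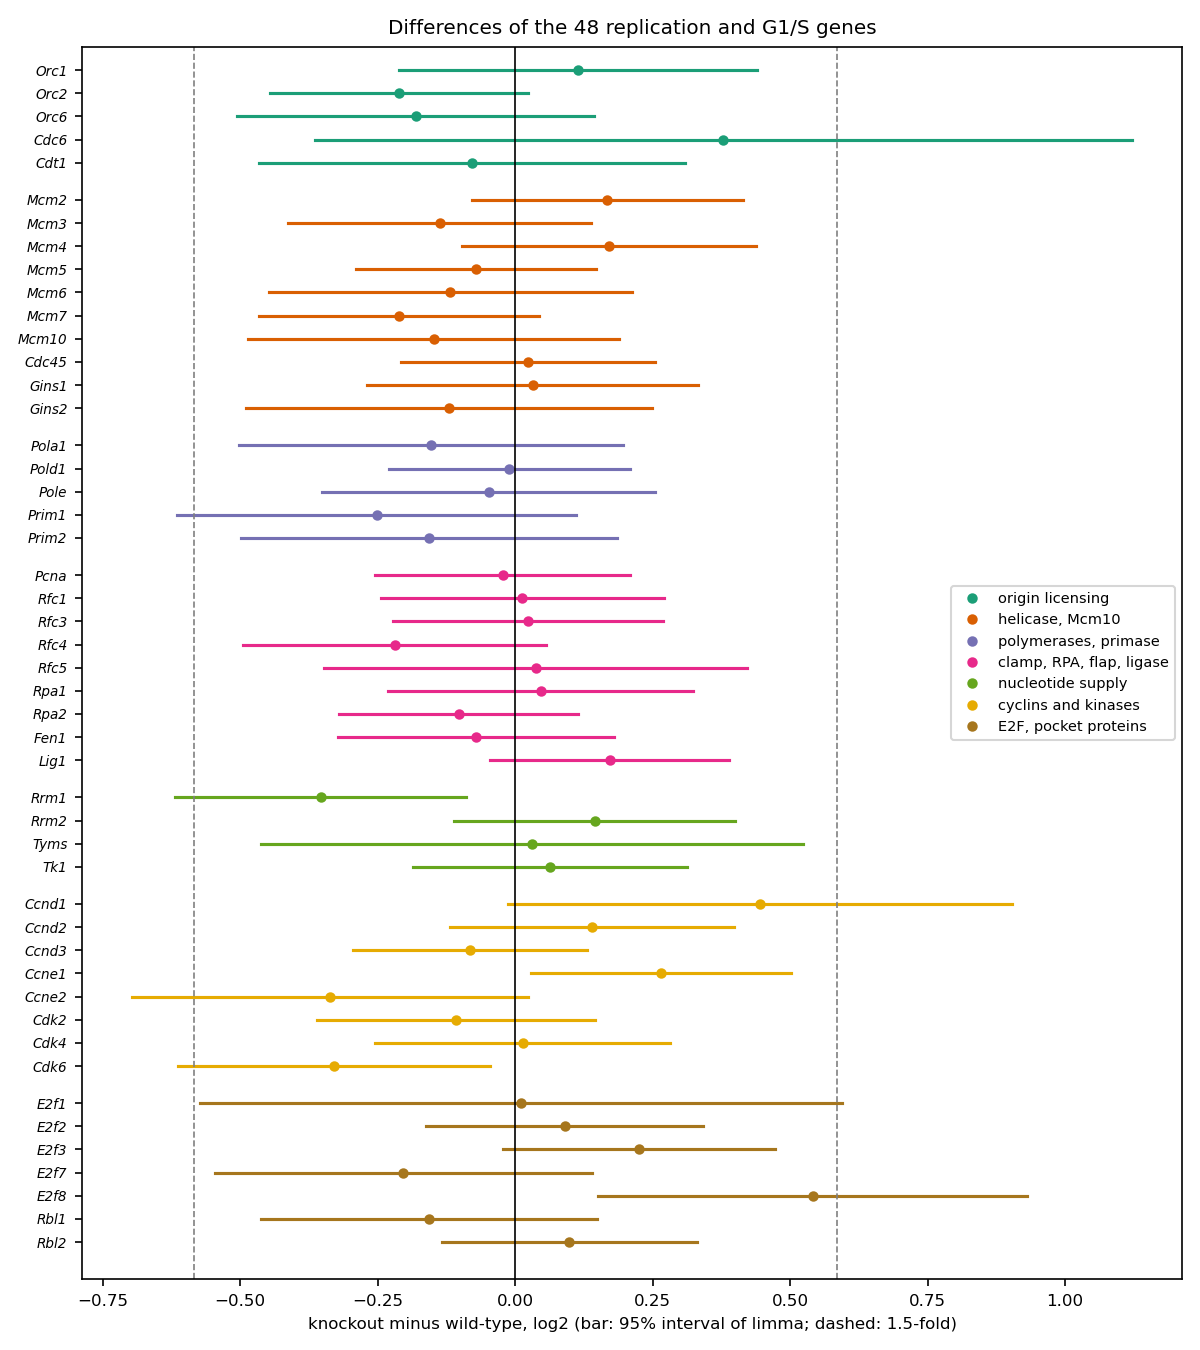
Knockout minus wild-type difference on the log2 scale (x axis) for each of the 48 genes (y axis), grouped and coloured by role. Points are limma estimates, bars their 95% intervals and dashed lines a 1.5-fold change, and the bars of 40 genes stay between the dashed lines.

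A feature that the choice of genes did not use is the letters of their promoters. E2F factors bind a short GC-rich motif, searched here as TTTCCCGC, TTTGGCGC, TTTCGCGC or TTTGCCGC on both strands, in windows from 250 bases before to 50 bases after each gene's start (RefSeq, GRCm38.p6). Overlapping matches were each counted. Windows were held for 40 of the 48 genes, and 16 of these, or 40.0%, had at least 1 match, against 704 of 27025 genes, or 2.6%, in the whole table. No window was held for Mcm4, Gins1, Gins2, Pole, Prim2, Ccnd1, Ccnd2 and Ccne2. Among all windows whose GC content lay between the quartiles of the members' windows, 3.38% had a match, against 33.3% of the 48 windows of these 40 genes. The genes had been chosen for their known roles, many of them textbook E2F targets, and a match in letters does not show that a factor binds there.

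Of the genes with 2 or more matches, 4 encode subunits of the Mcm ring and the fifth, Rfc3, a subunit of the clamp loader. Their windows are shown because they carry the shared motif most often, with the matches in capitals, 5′ to 3′ on the strand of the gene. They lie at chr1:20820263-20820562 (minus strand) for Mcm3, chr8:75109259-75109558 (plus strand) for Mcm5, chr1:128359656-128359955 (minus strand) for Mcm6, chr5:138171834-138172133 (minus strand) for Mcm7 and chr5:151651159-151651458 (minus strand) for Rfc3. In Mcm5 and in Mcm6 a pair of matches overlaps and forms 1 run of capitals.
Mcm3: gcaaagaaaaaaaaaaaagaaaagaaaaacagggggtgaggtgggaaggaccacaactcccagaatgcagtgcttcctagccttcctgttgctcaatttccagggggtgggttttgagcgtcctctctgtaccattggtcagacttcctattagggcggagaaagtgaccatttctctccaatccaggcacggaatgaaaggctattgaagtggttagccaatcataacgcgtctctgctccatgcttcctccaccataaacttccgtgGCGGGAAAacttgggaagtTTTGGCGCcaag
Mcm5: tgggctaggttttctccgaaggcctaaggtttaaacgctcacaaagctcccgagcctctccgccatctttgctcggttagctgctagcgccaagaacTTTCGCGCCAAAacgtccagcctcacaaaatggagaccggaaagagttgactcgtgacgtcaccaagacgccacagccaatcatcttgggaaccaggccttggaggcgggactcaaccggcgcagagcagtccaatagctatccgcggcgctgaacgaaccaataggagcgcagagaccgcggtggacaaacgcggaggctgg
Mcm6: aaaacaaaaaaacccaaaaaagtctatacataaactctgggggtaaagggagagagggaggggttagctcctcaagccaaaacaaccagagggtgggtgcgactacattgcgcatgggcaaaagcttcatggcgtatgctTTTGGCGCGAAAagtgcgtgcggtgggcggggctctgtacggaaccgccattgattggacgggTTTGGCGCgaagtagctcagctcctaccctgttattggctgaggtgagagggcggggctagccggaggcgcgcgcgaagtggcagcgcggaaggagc
Mcm7: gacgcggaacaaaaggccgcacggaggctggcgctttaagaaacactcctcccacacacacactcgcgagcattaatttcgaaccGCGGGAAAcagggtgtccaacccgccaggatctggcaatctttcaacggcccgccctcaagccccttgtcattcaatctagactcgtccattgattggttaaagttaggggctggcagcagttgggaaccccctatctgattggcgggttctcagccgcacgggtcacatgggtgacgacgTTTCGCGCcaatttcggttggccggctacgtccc
Rfc3: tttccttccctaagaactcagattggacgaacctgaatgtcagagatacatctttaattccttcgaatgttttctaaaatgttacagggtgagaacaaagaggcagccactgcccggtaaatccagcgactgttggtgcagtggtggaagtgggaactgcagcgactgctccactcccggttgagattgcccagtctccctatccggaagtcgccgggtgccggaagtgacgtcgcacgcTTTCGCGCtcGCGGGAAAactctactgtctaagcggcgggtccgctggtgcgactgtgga

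The members with the lowest unadjusted p in each direction, Rrm1 and E2f8, had no match in their windows, which are shown for contrast and hold no capitals. They lie at chr7:102441445-102441744 (plus strand) for Rrm1 and chr7:48881547-48881846 (minus strand) for E2f8. The absence of these letters covers only these windows and the full motifs. Each window holds a stretch that differs from a searched motif in its first letter only, gttcccgc in Rrm1 and attggcgc in E2f8.
Rrm1: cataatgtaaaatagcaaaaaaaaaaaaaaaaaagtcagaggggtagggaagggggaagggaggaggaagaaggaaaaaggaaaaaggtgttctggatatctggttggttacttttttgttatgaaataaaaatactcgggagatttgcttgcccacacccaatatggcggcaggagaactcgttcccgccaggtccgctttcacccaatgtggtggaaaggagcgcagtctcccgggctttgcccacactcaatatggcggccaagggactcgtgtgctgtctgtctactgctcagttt
E2f8: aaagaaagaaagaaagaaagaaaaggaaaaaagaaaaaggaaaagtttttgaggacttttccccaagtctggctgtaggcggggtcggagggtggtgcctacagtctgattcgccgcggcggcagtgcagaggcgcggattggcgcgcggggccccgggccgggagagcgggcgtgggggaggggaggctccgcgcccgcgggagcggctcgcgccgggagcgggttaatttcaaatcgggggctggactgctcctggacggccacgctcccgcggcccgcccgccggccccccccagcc

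The 16 genes with a match had a median difference of -0.075 between knockout and wild-type hearts, with 6 above 0 and a range of -0.21 to 0.38. The 24 genes without one had a median of 0.012, with 13 above 0 and a range of -0.35 to 0.54. The 8 genes without a window are in neither set, among them Ccnd1 at 0.45 and Ccne2 at -0.34. The ranges of the sets with and without a match overlapped widely, and no test was made between them, since the genes of each set share the same 6 hearts.

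**Figure D2:**
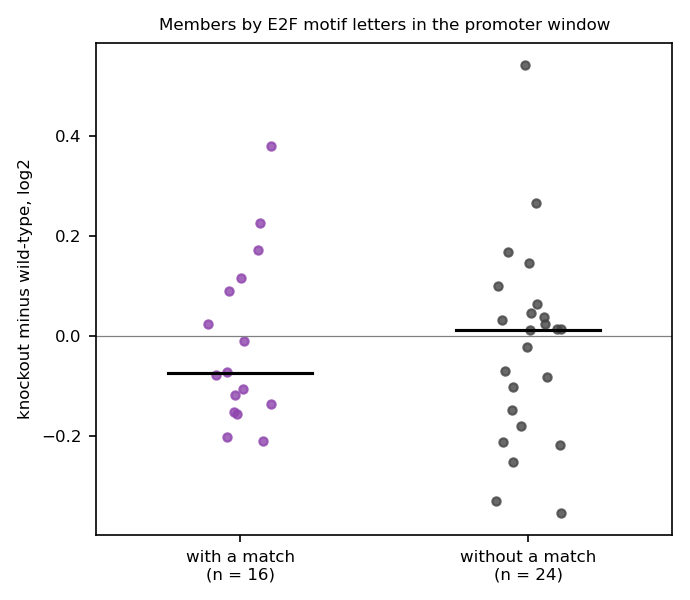
Knockout minus wild-type difference on the log2 scale (y axis) for the 16 genes with E2F motif letters in the promoter window and the 24 without (x axis). Points are genes and lines are medians, at -0.075 with a match and 0.012 without. The 8 genes without a window are left out.

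Among genes that mark and license origins, 2 of 5 were higher and 3 lower in value in knockout hearts. Orc2, a subunit of the origin recognition complex, read 8.15, 7.91 and 8.04 in knockout hearts, against 8.26, 8.30 and 8.18 in wild-type hearts. Each knockout value lay below each wild-type value, with knockout replicate 1 close to wild-type replicate 3, and the difference of -0.21 ± 0.10 (SE) did not pass (limma, adjusted p = 0.535). Cdc6, which loads the Mcm ring, read 6.66, 6.39 and 6.61 in knockout hearts, against 6.72, 6.49 and 5.30 in wild-type hearts. Its difference of 0.38 rested on the low value of wild-type replicate 3, and without that array it was -0.058. The other members here were Orc1, below background in all 6 hearts, Orc6 with a difference of -0.18 and the loading factor Cdt1 with -0.079.

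The helicase genes gave 4 higher and 6 lower differences among 10, from -0.21 to 0.17. Mcm7 read 7.91, 7.65 and 7.64 in knockout hearts, against 8.03, 7.90 and 7.91 in wild-type hearts. Knockout replicate 1 lay among the wild-type values while the other knockout hearts lay below them, and the difference was -0.21 ± 0.11 (SE) (limma, adjusted p = 0.561). Mcm5 read 7.93, 7.78 and 7.89 in knockout hearts, against 7.91, 8.01 and 7.90 in wild-type hearts, so that the groups overlapped, with a difference of -0.072. Within the Mcm ring the subunits did not share a sign, with Mcm2 and Mcm4 at 0.17 each and Mcm3, Mcm5, Mcm6 and Mcm7 between -0.21 and -0.072. None of the 6 subunits passed, so this split is a description. Cdc45 differed by 0.023, Gins1 by 0.032, Gins2 by -0.12 and the replication factor Mcm10 by -0.15, and the 95% intervals of the 10 helicase genes all lay within a 1.5-fold change. Gins1 lay below background in mean in both groups and above it in 1 of 6 hearts, so its interval does not bound a change in transcript level.

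The polymerase and primase genes had values below 0 in 5 of 5, with a median of -0.15, though 0 of 5 passed even unadjusted. Prim1, which encodes the small primase subunit that starts each new strand, read 6.29, 6.22 and 6.42 in knockout hearts, against 6.73, 6.76 and 6.20 in wild-type hearts. The first 2 wild-type hearts lay above the knockout hearts and the third lay lowest of all 6, and 3 of the 6 values lay below background. The difference was -0.25 ± 0.16 (SE) (limma, adjusted p = 0.618), and ran from -0.43 without wild-type replicate 3 to -0.15 without wild-type replicate 2. Pold1, the catalytic subunit of polymerase delta, read 7.67, 7.58 and 7.502 in knockout hearts, against 7.56, 7.66 and 7.57 in wild-type hearts, a difference of -0.010 with a 95% interval from -0.23 to 0.21. Prim2, Pola1 and Pole differed by -0.16, -0.15 and -0.048.

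Genes of the sliding clamp, the clamp loader, single-strand binding and the joining of lagging-strand fragments had 5 higher and 4 lower values among 9, and their intervals all lay within a 1.5-fold change. Lig1, the ligase that seals those fragments, read 7.14, 7.20 and 7.30 in knockout hearts, against 7.11, 6.996 and 7.03 in wild-type hearts. The groups did not overlap, and the difference of 0.17 ± 0.095 (SE) did not pass (limma, adjusted p = 0.575). Rfc4, a clamp loader subunit, read 9.63, 9.38 and 9.45 in knockout hearts, against 9.75, 9.84 and 9.53 in wild-type hearts. Knockout replicate 1 lay above wild-type replicate 3, and the difference was -0.22 ± 0.12 (SE) (limma, adjusted p = 0.573). Rfc1, Rfc3 and Rfc5 differed by 0.013, 0.024 and 0.038. Rpa1 and Rpa2, which coat single-stranded DNA, differed by 0.046 and -0.10, and the flap nuclease gene Fen1 by -0.071.

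Pcna, the sliding clamp, read 10.16, 10.09 and 9.95 in knockout hearts, against 10.13, 10.13 and 10.01 in wild-type hearts. The groups overlapped, and the difference was -0.023 with a 95% interval from -0.25 to 0.21. None of the 20 named neighbours of this probe set in probe order lies on chromosome 2, that of Pcna, and 19 lie on chromosome 19, so the probe set may read a copy elsewhere. The other Pcna probe set read 10.15, 10.08 and 9.94 in knockout hearts, against 10.12, 10.12 and 9.99 in wild-type hearts. It lay close to the chosen one in every heart, so its difference, the same -0.023, may not be a separate reading. Tk1, a thymidine kinase that salvages a nucleotide for DNA synthesis, had a like limit, with 0 of 20 neighbours on its chromosome 11 and 14 on chromosome 8. Its chosen probe set differed by 0.063 and its other one by 0.18 (limma, adjusted p = 0.712). These 2 probe sets did not follow each other by heart. The chosen one read 7.63, 7.32 and 7.53 in wild-type hearts, and the other 6.71, 7.20 and 7.10. Of the other members, the 2 probe sets of E2f3 differed by 0.23 and 0.040.

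Of the genes that supply nucleotides, Rrm1 had the lowest unadjusted p among members with a difference below 0. Rrm1 encodes the large subunit of ribonucleotide reductase, the enzyme that makes deoxyribonucleotides, and read 8.77, 9.02 and 8.93 in knockout hearts, against 9.34, 9.35 and 9.10 in wild-type hearts. The groups did not overlap, and wild-type replicate 3 lay nearest to the knockout hearts. The difference was -0.35 ± 0.12 (SE) and a 95% interval from -0.62 to -0.088 (limma, adjusted p = 0.443). Rrm2, which encodes the small subunit and is the one tied to S phase, differed by 0.14, and Tyms, the thymidylate synthase gene, by 0.031. Tyms was among the members that varied most between hearts of a group, with an SD of 0.34 in knockout and 0.35 in wild-type hearts.

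The G1 cyclins and their kinases had 4 differences above and 4 below 0 among 8, with a median size of 0.20 whatever the sign, against 0.11 over all probe sets tested. That median was 0.13 over the 48 genes. It was 0.18 for the origin genes, 0.16 for E2F factors and pocket proteins and 0.15 for polymerases and primase. In the other role groups it lay between 0.046 and 0.13. Ccnd1, the cyclin D1 gene that answers growth signals, read 11.02, 10.65 and 10.57 in knockout hearts, against 10.01, 10.17 and 10.73 in wild-type hearts. Wild-type replicate 3 lay within the knockout range, well above the other wild-type hearts. The difference was 0.45 ± 0.20 (SE) (limma, adjusted p = 0.514), and ran from 0.30 without wild-type replicate 1 to 0.66 without wild-type replicate 3, where its adjusted p of 0.117 was the lowest of any member. Ccnd2 and Ccnd3 differed by 0.14 and -0.082.

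Ccne1, a cyclin E gene that drives entry into S phase, read 7.61, 7.73 and 7.83 in knockout hearts, against 7.45, 7.37 and 7.55 in wild-type hearts. The groups did not overlap, and the difference was 0.27 ± 0.10 (SE) (limma, adjusted p = 0.474). Its close relative Ccne2 had a difference of the other sign, -0.34 (limma, adjusted p = 0.527). Cdk6, a kinase partner of D cyclins, read 8.69, 8.53 and 8.46 in knockout hearts, against 9.003, 8.996 and 8.67 in wild-type hearts. Knockout replicate 1 lay just above wild-type replicate 3, and the difference was -0.33 ± 0.12 (SE) (limma, adjusted p = 0.469). Cdk4, the other such partner, read 11.41, 11.33 and 11.37 in knockout hearts, against 11.46, 11.47 and 11.13 in wild-type hearts. Its groups overlapped, and the difference was 0.014, with a sign that turned to -0.044 with array weights, to -0.0070 when knockout replicate 1 was left out and to -0.097 when wild-type replicate 3 was. Cdk2, the partner of cyclin E, differed by -0.11.

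Among the E2F factors and pocket proteins 5 of 7 values were higher. E2f8, an atypical E2F that represses E2F targets, had the lowest unadjusted p of the 48 genes. It read 6.79, 6.63 and 6.52 in knockout hearts, against 5.73, 6.39 and 6.19 in wild-type hearts. The 3 knockout values lay above background and above each wild-type value, while only wild-type replicate 2 lay above background, so the size of the difference is uncertain. The difference was 0.54 ± 0.17 (SE) and a 95% interval from 0.15 to 0.93 (limma, adjusted p = 0.426). It ran from 0.35 without wild-type replicate 1 to 0.68 without wild-type replicate 2. E2f7, the other atypical E2F, had a difference of the other sign, -0.20.

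E2f3, an activating E2F, read 7.91, 7.68 and 7.71 in knockout hearts, against 7.63, 7.56 and 7.43 in wild-type hearts. The groups did not overlap for this probe set, and the difference was 0.23 ± 0.11 (SE) (limma, adjusted p = 0.530). E2f1 varied widely in both groups, with an SD of 0.41 in knockout and 0.43 in wild-type hearts, and its difference was 0.011. E2f2 differed by 0.090. The pocket protein gene Rbl2 read 8.69, 8.87 and 8.78 in knockout hearts, against 8.603, 8.65 and 8.79 in wild-type hearts, which overlapped, and differed by 0.099. The other pocket protein gene, Rbl1, differed by -0.16.

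**Figure D3:**
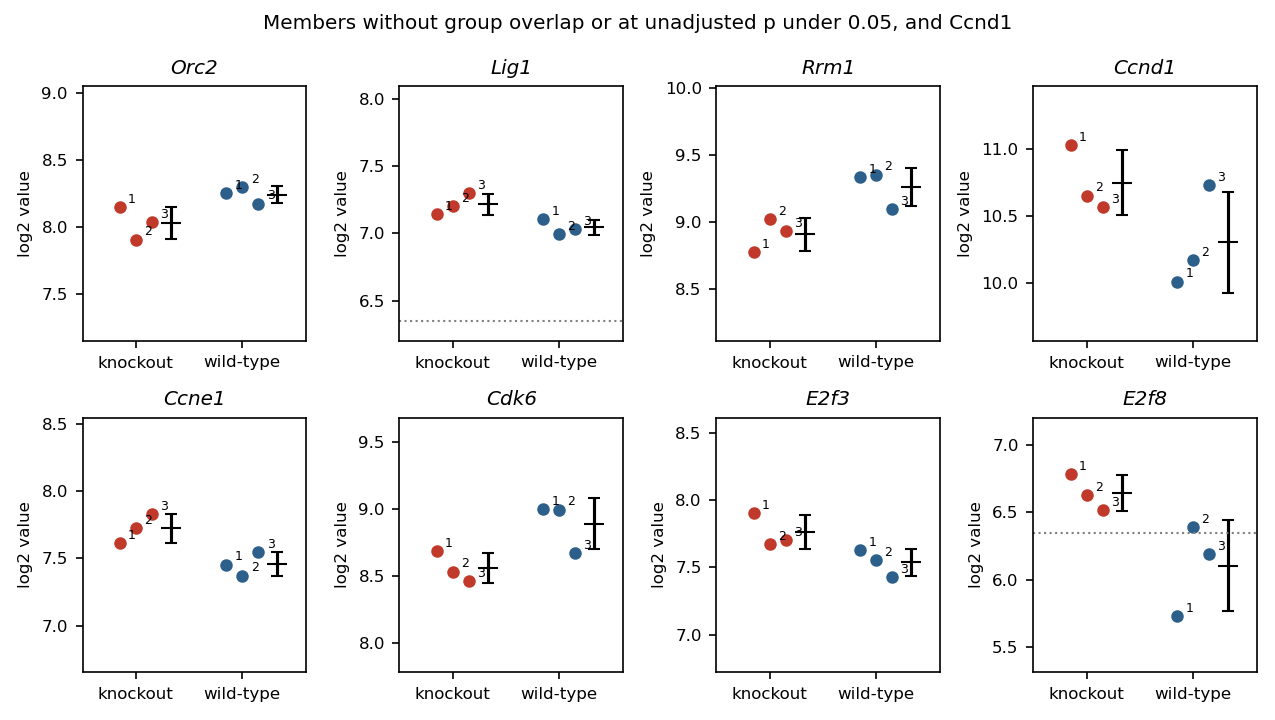
Log2 value (y axis) in each heart, numbered by replicate, for the 7 members whose groups did not overlap or whose unadjusted p was under 0.05, and for Ccnd1 (x axis: knockout in red, wild-type in blue). Black bars are group means ± SD (n = 3 each) and dotted lines the background level of 6.35, with wild-type replicate 3 inside the knockout range for Ccnd1 and Cdk6.

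The list means by heart did not separate the groups. The mean deviation of the 48 genes from each gene's own mean over the 6 hearts was 0.049, -0.043 and -0.026 in knockout hearts, against 0.054, 0.024 and -0.058 in wild-type hearts. Knockout replicate 1 and wild-type replicate 1 stood highest and wild-type replicate 3 lowest. In 29 of the 48 genes wild-type replicate 3 lay nearer to the knockout mean than to the mean of the other wild-type hearts. The knockout mean is over 3 hearts and the other mean over 2, which can tilt this count to the knockout side. The same count was not made over all probe sets, so it is not a result about these genes. Leaving out wild-type replicate 3 gave 9 members at an unadjusted p under 0.05. That was 18.8% of the 48, against 15.8% of all probe sets tested in the same fit. Still 0 members had an adjusted p under 0.05, where 1.34% of all probe sets passed. Leaving out wild-type replicate 1 or wild-type replicate 2 left 1 member at an unadjusted p under 0.05, E2f8, where 6.84% and 6.07% of all probe sets lay. Leaving out knockout replicate 2 left 2, Rrm1 and E2f8, with 7.37% of all probe sets, and knockout replicate 3 left 3, with 6.6%. Without knockout replicate 1 there were 7, or 14.6%, against 11.2% of all probe sets.

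The rest of the pathway was read from a list of 62 further replication and G1/S genes, of which 60 had a probe set with 1 symbol. Of these 60, 0 passed an adjusted p under 0.05 (limma), and 7, or 11.7%, had an unadjusted p under 0.05, against 9.90% of all probe sets tested. Of the 7, 1 was higher, where 4.66% of all probe sets lay, and 6 were lower, where 5.24% lay. Values were higher for 23, or 38.3%, and lower for 37, with a median difference of -0.059, against 47.9% higher and a median of -0.0082 over all probe sets tested. Mcm8, a relative of the Mcm ring subunits with a role in recombination repair, read 6.32, 6.33 and 6.36 in knockout hearts, against 6.87, 6.90 and 6.82 in wild-type hearts. The groups lay well apart, with the knockout values at the background level, and the difference was -0.53 ± 0.088 (SE) (limma, adjusted p = 0.185). Orc5, another origin recognition subunit, read 8.09, 7.96 and 8.20 in knockout hearts, against 8.53, 8.62 and 8.43 in wild-type hearts, which did not overlap, a difference of -0.44 (limma, adjusted p = 0.368). The chromatin assembly gene Chaf1b differed by -0.28 (limma, adjusted p = 0.494), the clamp loader gene Chtf18 by 0.23 (limma, adjusted p = 0.511) and the polymerase delta subunit gene Pold4 by 0.23 (limma, adjusted p = 0.526).

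Ccna2, the cyclin A gene that acts in S phase and G2, had the largest difference of these 60 genes in size. It read 7.48, 7.33 and 7.17 in knockout hearts, against 6.38, 6.28 and 7.03 in wild-type hearts. The groups did not overlap, but wild-type replicate 3 lay much nearer to the knockout hearts than to the other wild-type hearts. The difference was 0.76 ± 0.20 (SE) (limma, adjusted p = 0.368), and 0.997 without wild-type replicate 3 (limma, adjusted p = 0.0212, range over the alternatives up to 0.788).

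Markers of proliferating cells, which act mainly in G2 and mitosis, were set beside the 48 genes. Of 10 listed, 9 were measured. At an unadjusted p under 0.05 there were 2 of them, Top2a and Kif11, or 22.2%, against 9.90% of all probe sets tested. Of the 9, 0 passed an adjusted p under 0.05 (limma). Their mean deviation was 0.23, 0.15 and 0.024 in knockout hearts, against -0.35, -0.21 and 0.16 in wild-type hearts, so wild-type replicate 3 lay within the knockout range. Their summed log2 values ran from 60.6 to 62.4 in knockout hearts, against 57.3 to 61.9 in wild-type hearts, and Top2a, Birc5 and Bub1 lay below background in mean level. Mki67, the standard marker of cycling cells, read 7.09, 7.27 and 6.93 in knockout hearts, against 6.27, 6.23 and 7.20 in wild-type hearts. Ccnb2, a mitotic cyclin gene, read 7.90, 7.49 and 7.74 in knockout hearts, against 6.44, 6.73 and 7.87 in wild-type hearts. For both genes wild-type replicate 3 read with the knockout hearts, as it did for Ccnd1 and, in part, Ccna2. Mki67 and Ccnb2 were chosen after their values were seen, and 3 of the 9 markers, Birc5, Plk1 and Aurkb, had differences below 0, at -0.082, -0.021 and -0.049.

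Erythroid genes stood on the same side, and 3 of 8 listed could be measured. Their mean deviation was 0.41, 0.19 and 0.26 in knockout hearts, against -0.48, -0.31 and -0.076 in wild-type hearts, and their summed log2 values ran from 24.6 to 25.3 in knockout hearts, against 22.6 to 23.8 in wild-type hearts. Alas2, which makes heme in red cell precursors, differed by 0.88. Slc4a1 differed by 0.54 and Epb42, below background in mean level, by 0.31 (limma, adjusted p from 0.263 to 0.435 for the 3). All 3 were without overlap between the groups, as were 14.8% of all probe sets tested. Fibroblast markers read 0.35, -0.33 and -0.21 in knockout hearts, against 0.12, 0.29 and -0.22 in wild-type hearts, with 8 of 8 measured and above background. Macrophage and monocyte markers, also 8 of 8, read 0.36, -0.26 and -0.11 in knockout hearts, against -0.25, 0.070 and 0.20 in wild-type hearts. Endothelial markers, 8 of 8 above background, did not overlap between groups in their mean. They read 0.099, 0.032 and 0.0017 in knockout hearts, against -0.041, -0.079 and -0.013 in wild-type hearts. Their summed log2 values were 83.6 to 84.4 in knockout hearts, against 83.0 to 83.5 in wild-type hearts. The gap leaned on Kdr, at 0.43. Of the 8 differences, 6 were above 0 and 2 below, with Emcn lowest at -0.27. Adipocyte markers did not overlap either, at -0.18, -0.32 and -0.29 in knockout hearts, against 0.58, 0.30 and -0.086 in wild-type hearts, with 7 of 8 measured and Adipoq and Lep below background in mean level. Their summed log2 values ran from 54.1 to 55.1 in knockout hearts, against 55.7 to 60.4 in wild-type hearts. The gap leaned on Car3, at -2.29 the largest difference of the 7. Differences were below 0 in 6 of them, with Fabp4 at -0.035, and above 0 in 1, Pparg, at 0.058. Smooth muscle, lymphocyte and cardiomyocyte marker means overlapped between the groups. Single markers differed more than these means. In the smooth muscle list Acta2 differed by -1.28 and Myh11 by 0.32, with 5 of 8 differences above 0 and 3 below. In the macrophage and monocyte list Cd14 differed by -0.79 (limma, adjusted p = 0.110), again with 5 of 8 above 0 and 3 below. The part of any of these cell types in the values of E2f8, Ccne1, Rrm1, Cdk6 or Ccnd1 was not tested.

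**Figure D4:**
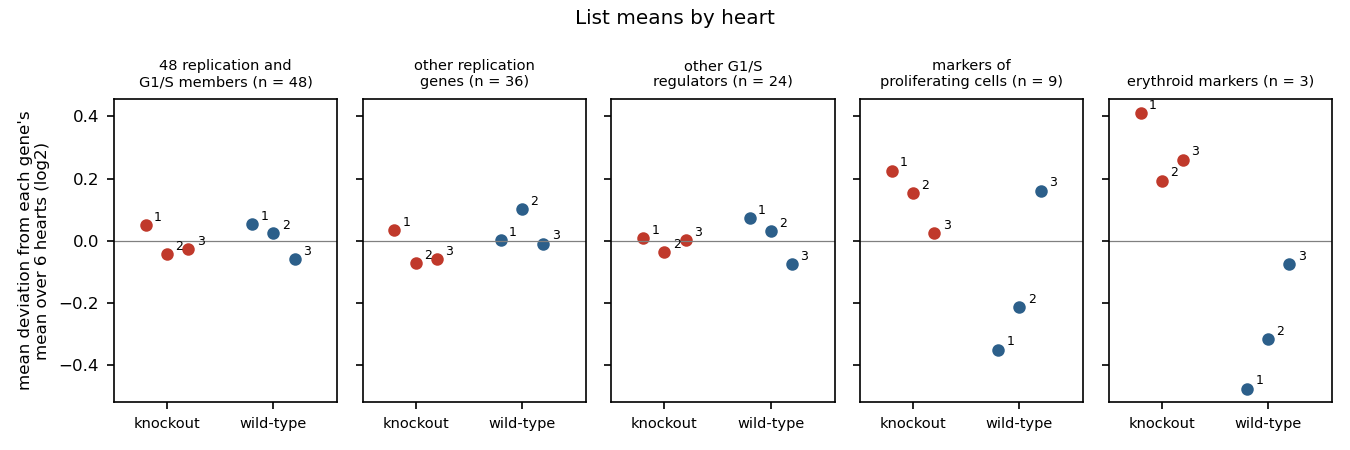
Mean deviation from each gene's own mean over the 6 hearts, on the log2 scale (y axis), for 5 gene lists in knockout (red) and wild-type (blue) hearts (x axis), with points numbered by replicate. The 48 replication and G1/S genes stay between -0.058 and 0.054, while markers of proliferating cells run from -0.35 to 0.23 with wild-type replicate 3 among the knockout hearts.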

How the data were processed

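Total RNA of 6 hearts was read on 1 Affymetrix mouse gene array each. The authors deposited 1 table of log2 values for 35556 probe sets, and the tools named are RMA and Partek 6.6, per the submitters' processing notes, with no settings given. RMA brings the arrays to a common distribution after background correction, so differences are relative to the rest of each array, and small folds tend to be compressed. Array medians lay between 6.92 and 6.97, and no further normalization was applied.

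The platform annotation gave exactly 1 symbol for 21789 probe sets, several for 1621 and no name here for 12146. The groups were compared in limma 3.58.1 (R 4.3.3, lmFit and eBayes, two-sided) on the 21789, with Benjamini-Hochberg adjustment over them and a threshold of 0.05. No probe set was left out for low signal, and the test was tested on simulated data with changes of 2-fold or more. These were larger than the difference of any member, so they do not show how well changes of the size seen here are called. The number of arrays, 3 a group, limits the precision.

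Members, pathway genes and markers were chosen with earlier results of these data known. Values in every heart are given for members that passed, had an unadjusted p under 0.05 or did not overlap above background, and for the member of highest mean and of largest difference in each role group. Of the pathway list, the 3 lowest p in each direction above background are named. The markers named were chosen after their values were seen. Other normalizations, filters, probe choices, variance models and left-out arrays were tried. Figures used matplotlib 3.10.9.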

Additional observations from a re-analysis of the deposited data

How the results depend on the processing

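The count of 0 members at an adjusted p under 0.05 held in the 15 alternatives run, among them other normalizations, filters and variance models and each array left out. The count at an unadjusted p under 0.05 was 9 with array weights, or 18.8%, where 17.9% of all probe sets reached it, against 4 and 9.90%, and ran from 1 to 9 when an array was left out, where 6.07% to 15.8% of all probe sets did. The count without overlap ran from 8 to 18 when an array was left out, against 6, as fewer arrays overlap less often, and 21.6% to 34.2% of all probe sets did not overlap then. The pathway count ran from 0 to 1, the call being Ccna2 without wild-type replicate 3. The difference of Cenpf was -2.07 with all probe sets of the table tested (adjusted p = 0.281) and with a plain linear model (adjusted p = 0.476), neither passing, and ran from -2.27 to -1.92 when an array was left out. Over all probe sets tested, 6 were called, against 9 with array medians subtracted, 9 with the mean of a gene's probe sets, 22 with a trend and robust variance, 33 with array weights, 1 with the whole table, 0 with a plain linear model (8.22% at an unadjusted p under 0.05), and 293 without wild-type replicate 3. The causes of these shifts were not tested. With the replicate number as a block, 11 were called, and 3 members had an unadjusted p under 0.05, where 8.43% of all probe sets reached it. Same-numbered hearts did not deviate together across the probe sets, with correlations of -0.11, -0.16 and -0.0031. Deviations within groups of 3 arrays cannot show whether the hearts were paired. Near 0, signs turned: Pold1 was 0.011 with array medians subtracted and ran from -0.055 to 0.030 when an array was left out, Cdk4 was -0.044 with array weights and ran from -0.097 to 0.073, Pcna from -0.070 to 0.036 and Cdc6 from -0.058 to 0.65. The median difference of the members ran from -0.063 to 0.0050. With the 75th percentile of the receptor probe sets as background, 48 members lay above it in at least 1 group, against 46.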
